A study of Mus musculus with 32 samples.

Results

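Astrocyte marker genes were followed through cultures that were made to study neurons. The set held 10 genes, taken by symbol from the gene names that the authors paired with Ensembl identifiers: Gfap, Aqp4, Slc1a2, Slc1a3, Aldh1l1, Aldoc, Gja1, Sox9, Sox2 and Fgfr3. Each matched 1 gene, so 10 of the 55573 genes in the count table are described, and all 10 passed the filter on low counts in every comparison. Hippocampal neurons of newborn mice were cultured on a porous membrane, and RNA was taken from the cell bodies above the membrane (soma, a fraction that can also hold neurites) and from the processes below it (neurites). The cultures came from C57BL/6 mice (WT) or from mice with both Mettl3 alleles floxed (Mettl3 KO), METTL3 being the enzyme that writes N6-methyladenosine (m6A) into mRNA. All cultures, WT included, received an AAV with Cre and dTomato at day 7 in vitro (50000 vector genomes per cell) under the neuronal hSyn promoter, so Cre was directed to neurons. All were silenced for 16 h with D-AP5 (50 µM) and tetrodotoxin (1 µM) and were taken at day 15, either untreated (Ctrl) or after 2 h in 55 mM KCl, which depolarizes the cells. Cytosine arabinoside had been given early in culture to limit dividing glia. The pups of a litter were pooled, and the replicates came from different litters. Soma and neurites were taken from the same insert, and the treated and untreated cultures shared a litter. RNA-seq gave 2 libraries for each of the 8 combinations of genotype, fraction and treatment, and DART-seq of 16 further libraries mapped m6A.

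Astrocytes tile the brain and wrap synapses and vessels. They take glutamate and potassium back from the space around neurons, pass ions and metabolites through gap junctions, and feed neurons with products of glycolysis. Their fate is set by SOX transcription factors that they share with neural stem cells, and Gfap, an intermediate filament gene, is their most used label. In bulk RNA a larger number of astrocytes and more RNA of these genes per cell cannot be told apart, and that holds for every level given here.

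The 16 libraries held between 33789183 and 71394235 assigned fragments. Levels are given as CPM, the count of a gene relative to the library total after TMM scaling. Mettl3 itself was lower in Mettl3 KO than in WT in each of the 4 fraction and treatment pairs without overlap, with 3.91 to 11.0 CPM against 9.04 to 16.7 CPM over all libraries, although no pair passed the test (adjusted p between 0.259 and 0.624, edgeR). The counts cover all annotated exons of Mettl3, also those outside the deleted stretch. The soma and neurite libraries of replicate 1 of KCl-treated Mettl3 KO stood apart from the other 14: neuron markers summed to 1507 and 916 CPM against 3571 to 5898 CPM elsewhere, and oligodendrocyte lineage markers to 4543 and 9178 CPM against 86.6 to 254 CPM. The replicates of a group differed far more in Mettl3 KO (SD of their log2 ratio over genes 0.50 to 1.33) than in WT (0.17 to 0.36). Comparisons within a genotype were therefore fitted on its own 8 libraries, and the Mettl3 KO results were also computed without the 2 libraries that stood apart. That omission was not planned in advance. Every comparison rests on 2 cultures a group, and its p-values measure the spread between replicates pooled over all groups in the fit.

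The members are given with their positions in GRCm38. Gfap (ENSMUSG00000020932) is on the minus strand of chr11:102887336-102900912, and Aldoc (ENSMUSG00000017390) and Sox9 (ENSMUSG00000000567) share that chromosome at chr11:78322968-78327781 and chr11:112782224-112787760. The glutamate transporter genes are Slc1a2 (ENSMUSG00000005089, chr2:102658659-102790784) and Slc1a3 (ENSMUSG00000005360, chr15:8634124-8710764, minus strand). Gja1 (ENSMUSG00000050953) is at chr10:56377330-56402513 and Aldh1l1 (ENSMUSG00000030088) at chr6:90486427-90600203. Sox2 (ENSMUSG00000074637) is at chr3:34650405-34652461 and Fgfr3 (ENSMUSG00000054252) at chr5:33721674-33737068. Of the exon positions, 13.4% of Aldh1l1 (Gm45901 and, on the other strand, Gm15756), 13.9% of Fgfr3 (antisense G630022F23Rik) and 1.4% of Slc1a2 (antisense Gm13872) also belong to another gene. Counting did not use strand, so reads from those stretches cannot be assigned to 1 gene, whereas the other 7 members share none.

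In DART-seq a fusion of the m6A-binding YTH domain and the cytidine deaminase APOBEC1 turns cytosines beside m6A into uracils, so an edited C after an A marks a methylated adenosine. The deposited list held 18231 sites in 5643 RNAs, all in the RAC motif (R is A or G). Of the 10 members 9 carried sites, 36 in total. Slc1a2, which encodes the main astrocyte glutamate transporter, had 9, Sox9 had 6, Slc1a3 had 5, Gfap, Aqp4 and Aldh1l1 had 4 each, Aldoc had 2, and Gja1 and Sox2 had 1 each. Fgfr3 had no listed site. In 1 principal coding transcript per gene of GENCODE M21, the one with the longest coding sequence, 18 of the sites lay in coding sequence, 17 in 3′UTRs and 1 in an intron of Gfap. The study searched annotated exons and lengthened 3′UTRs for sites, so intron here refers to that 1 Gfap transcript only. The most edited site of each of these genes except Aqp4, with 2 more for Slc1a2 and 1 more for Sox9, are printed here as 21 bases of the sense strand around the edited C, with the RAC motif in capitals and its last base the edited C, since they show where in each gene the methylation mark was read.
Slc1a2, coding exon 7 of 11, chr2:102755954-102755974, plus strand: ccatcaagGACttagaagtgg
Slc1a2, 3′UTR, chr2:102787557-102787577, plus strand: agtggtcaAACagatccctaa
Slc1a2, 3′UTR, chr2:102782793-102782813, plus strand: ctctacacAACtttccagata
Sox9, 3′UTR, chr11:112786506-112786526, plus strand: gttcctagAACattcactgtg
Sox9, 3′UTR, chr11:112786575-112786595, plus strand: gcaaaggaGACcaaaatttct
Gja1, 3′UTR, chr10:56390287-56390307, plus strand: atttgtttGACattccatgtt
Aldh1l1, coding exon 11 of 23, chr6:90570799-90570819, plus strand: aagaaactGACtctccaaatg
Sox2, coding exon 1 of 1, chr3:34650758-34650778, plus strand: cggcggaaAACcaagacgctc
Gfap, intron, chr11:102890827-102890847, minus strand: gttgtactAACagagctggcc
Slc1a3, coding exon 10 of 10, chr15:8636293-8636313, minus strand: tactgggtGACtccctcggag
Aldoc, coding exon 7 of 9, chr11:78325765-78325785, plus strand: gccatggcAACtgtcactgcc

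Editing differed widely among members. The 3 Slc1a2 sites were edited in 13.7%, 13.5% and 12.3% of WT reads, in the order in which they are printed. They stood at the 96.2th, 96th and 94.6th percentiles of all listed sites. An Aqp4 site in its 3′UTR followed at 10.9%, then the Sox9 sites at 7.96% and 7.57% and the Gja1 site at 7.49%. The other printed sites lay between 3.02% (Aldoc) and 7.03% (Aldh1l1). Over the 36 sites the median was 3.27%, close to the 3.54% of all 18231 sites, and 17 of the 36 lay above the latter. These percentages are the authors' averages over the WT libraries, with no value per replicate and no test, and the read depth of each site is unknown.

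**Figure D1:**
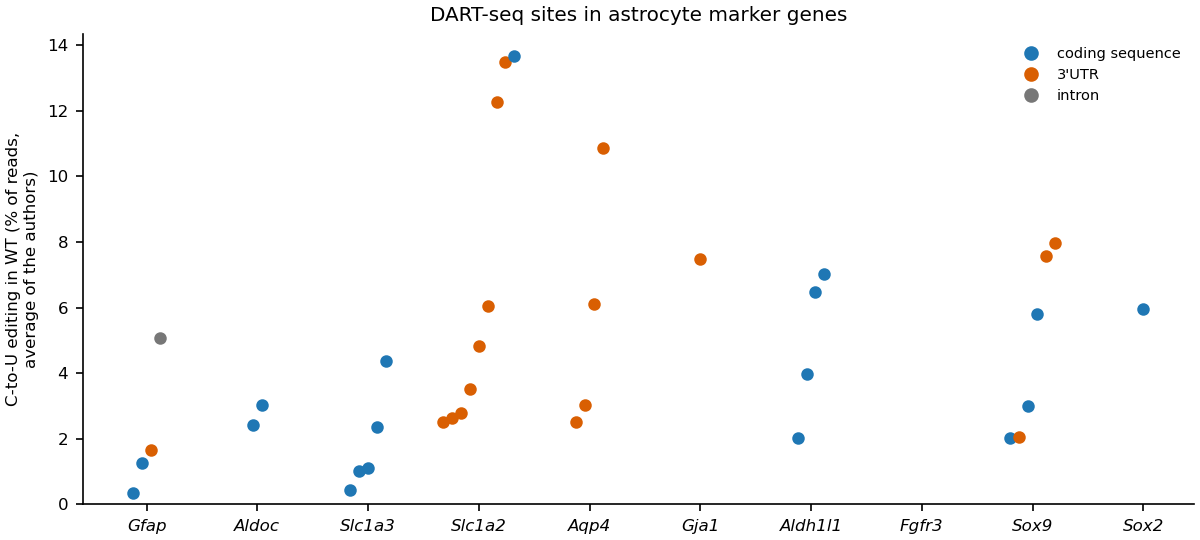
C-to-U editing (vertical axis, % of WT reads, the authors' average) at each of the 36 DART-seq sites in the astrocyte marker genes (horizontal axis), coloured by their place in the transcript. The 3 highest Slc1a2 sites lie between 12.3% and 13.7%, and Fgfr3 has no site.

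The editing score of an RNA, the sum of the editing fractions of its sites, again put Slc1a2 first. It had a WT score of 0.591, at the 98.6th percentile of the 5643 RNAs. Sox9 followed at 0.298 (89th percentile) and Aqp4 at 0.261 (85.3rd). The lowest were Aldoc at 0.0536 and Gfap at 0.0483, against a median of 0.103 for all RNAs. These 2 genes had the highest transcript levels per kilobase of the members. For Gfap the score and the site list do not match, since its intron site alone was listed at 5.06%, above the whole score. The rank of Gfap by score is therefore uncertain. Scores of other members also departed from their listed sites. The 1 site of Gja1, for example, was listed at 7.49%, and its score was 0.0784. The score was higher in neurites than in soma for 7 of the 9 members, from Gfap (0.0485 against 0.0479) to Slc1a3 (0.112 against 0.0519). It was lower in neurites for Sox9 (0.226 against 0.366) and Aldh1l1 (0.165 against 0.197). Over all RNAs 68.8% had the higher score in neurites. The WT score was 2.24 times (Aldoc) to 5.46 times (Sox2) the Mettl3 KO score, around the median of 3.10 for all RNAs. Sites were listed only where WT exceeded Mettl3 KO, so that excess is part of their definition.

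Transcript levels of the members were spread over more than 2 orders of magnitude. Per kilobase of exon, the order in the 8 WT libraries was led by Gfap, with a median of 227 CPM per kb (range 119.9 to 412). Aldoc, the brain form of the glycolytic enzyme aldolase, came next at 65.0 (44.7 to 117). The ranges of those 2 genes did not overlap. Sox9, Slc1a3 and Slc1a2 followed with medians of 37.5, 27.8 and 18.4 CPM per kb, and each overlapped its neighbour. Aqp4 (ENSMUSG00000024411, minus strand of chr18:15389496-15410982), the water channel of astrocyte endfeet, had 5.11, Gja1 (connexin 43, the gap junction protein) 2.61 and Aldh1l1, an enzyme of folate metabolism, 2.43 CPM per kb. Sox2 and the growth factor receptor gene Fgfr3 were lowest at 1.10 and 0.80 CPM per kb, again with overlapping ranges. Slc1a2 was separated from Aqp4 without overlap. The order pools fractions and treatments: in untreated WT soma Slc1a3 (18.9 CPM per kb) and Slc1a2 (17.4) were above Sox9 (13.1) without overlap, and in WT neurites the median of Slc1a3 (42.2) was above that of Sox9 (37.5) with overlap. All 10 genes were detected in every library, and no gene of any marker list used here was at 0 counts in any library.

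**Figure D2:**
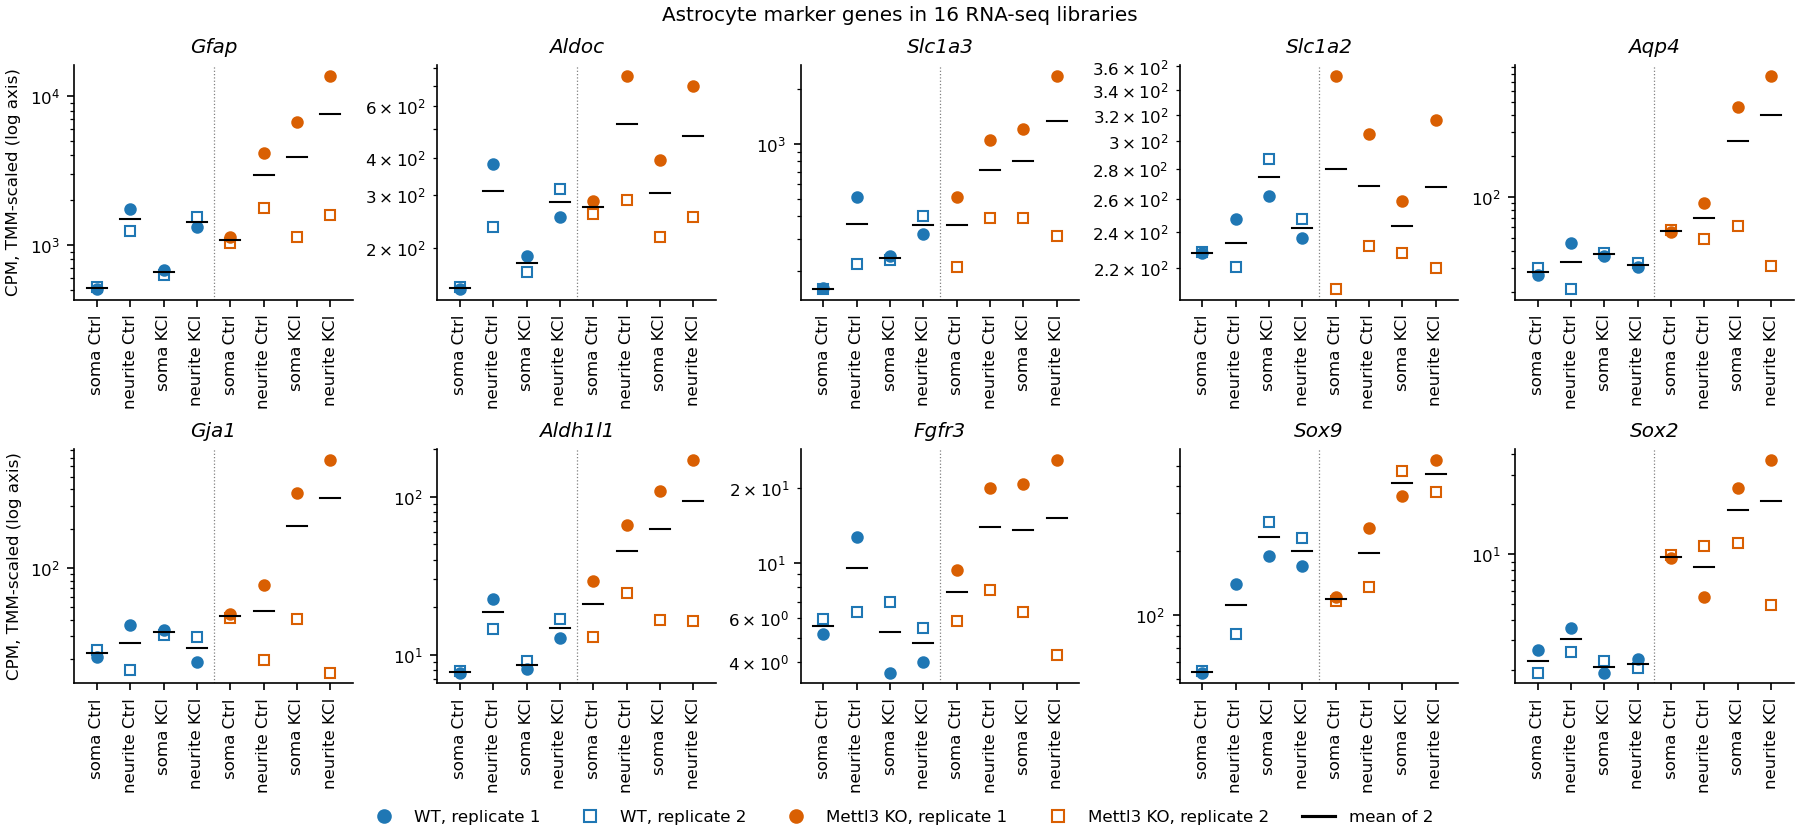
Level of each astrocyte marker gene (CPM, log axis, a scale of its own per panel) in the 16 libraries, by fraction and treatment (WT left of the dotted line, Mettl3 KO right; filled circles replicate 1, open squares replicate 2, bars the mean of 2). Replicate 1 of KCl-treated Mettl3 KO is far above replicate 2 for most genes, up to 13690 against 1581 CPM for Gfap in neurites, whereas Slc1a2 stays between 209 and 352 CPM throughout.

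The first comparison asked which RNAs are enriched in neurites over soma in untreated WT cultures. Of the 10 astrocyte genes 5 were higher in neurites and 0 lower, where 9.01% of the 23200 genes tested were called higher and 4.54% lower (adjusted p of at most 0.05 and at least 1.5-fold). The median log2 difference of the members was 0.82, against -0.10 for all genes tested. The cytoskeletal gene Gfap had 506 and 518 CPM in the soma libraries and 1737 and 1231 CPM in the neurite libraries. That is 2.72-fold in neurites (log2 1.44 ± 0.15 SE, adjusted p = 0.000333, edgeR quasi-likelihood test). It was the largest difference among the members, and replicate 1 of the neurites was above replicate 2.

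Genes of metabolism were also higher in neurites. Aldh1l1 had 7.71 and 7.97 CPM in soma and 22.7 and 14.5 CPM in neurites (2.23-fold, log2 1.16 ± 0.22 SE, adjusted p = 0.00559, edgeR). Aldoc had 145.8 and 148.5 CPM in soma and 383 and 235 CPM in neurites (1.97-fold, log2 0.98 ± 0.20 SE, adjusted p = 0.00804, edgeR). In both genes the fractions did not overlap, and again neurite replicate 1 was the higher.

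The 2 glutamate transporter genes parted. Slc1a3 (GLAST) had 161.9 and 160.3 CPM in soma and 511 and 219 CPM in neurites (2.13-fold, log2 1.09 ± 0.29 SE, adjusted p = 0.0274, edgeR). Slc1a2 (GLT-1) had 228 and 228 CPM in soma and 248 and 220 CPM in neurites (log2 -0.06 ± 0.11 SE, adjusted p = 0.74, edgeR). Slc1a3 was thus above soma in both neurite libraries, whereas the Slc1a2 fractions overlapped.

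Of the transcription factors, Sox9 had 53.7 and 54.9 CPM in soma and 139.9 and 81.9 CPM in neurites (1.92-fold, log2 0.94 ± 0.25 SE, adjusted p = 0.0265, edgeR). Sox2 had 2.62 and 1.91 CPM in soma and 3.58 and 2.55 CPM in neurites, with overlap (adjusted p = 0.376, edgeR). The membrane genes Aqp4 (26.7 and 30.1 CPM in soma, 45.8 and 21.2 CPM in neurites) and Gja1 (20.7 and 23.6 CPM in soma, 36.5 and 16.6 CPM in neurites) had 1 neurite library above and 1 below both soma libraries, and neither passed (adjusted p = 0.722 and 0.713, edgeR). Fgfr3 was 1.62-fold higher in neurites by its estimate but did not pass (5.17 and 5.96 CPM against 12.8 and 6.37 CPM, adjusted p = 0.193, edgeR).

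**Figure D3:**
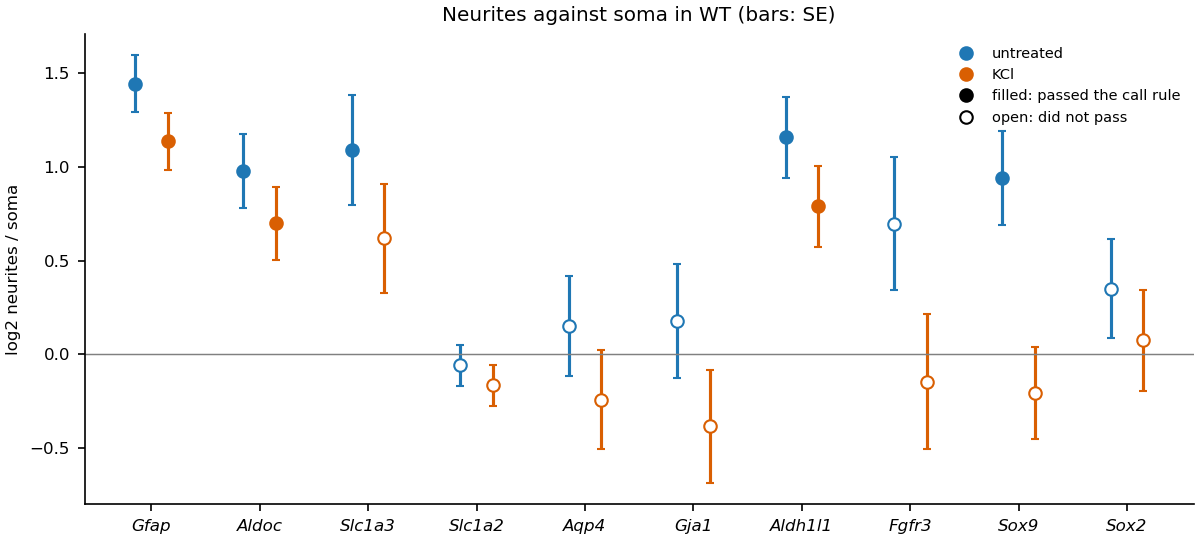
Difference between neurites and soma in WT (log2, vertical axis; bars are SE of the edgeR fit on 8 libraries) for each astrocyte marker gene, untreated (blue) and after KCl (orange), with filled points for genes that passed the call rule. Gfap is highest in both (1.44 and 1.14), and Slc1a2 lies near 0 (-0.06 and -0.17).

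Of 32 further astrocyte genes 7 were higher in neurites and 0 lower, where 9.01% of all genes were called higher, with a median log2 difference of 0.55. They included Glul (glutamine synthetase), Fabp7, Acsbg1, Ndrg2, Dio2 and Hepacam. By smallest p, Ndrg2 had 112.4 and 120.5 CPM in soma and 317 and 249.6 CPM in neurites (2.28-fold, adjusted p = 0.00052, edgeR). Dio2, which activates thyroid hormone, had 3.12 and 3.88 CPM against 15.0 and 9.83 CPM (3.34-fold, adjusted p = 0.00102, edgeR), and Hepacam, an adhesion protein, 13.1 and 15.0 CPM against 36.0 and 24.8 CPM (2.03-fold, adjusted p = 0.00412, edgeR). The progenitor and Notch list gave 2 of 10 (Nes and Vim), and the reactive astrocyte list 1 of 10 (S1pr3), the latter close to the 9.01% of all genes. The genes of these counts are named after their values were seen.

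Some markers of other non-neuronal cells were also called higher in the WT neurites, to be read against the same 9.01%. The fibroblast and vessel list gave 6 of 9 tested genes, with a summed level of 39.4 and 92.6 CPM in the untreated neurite libraries against 19.3 and 14.3 CPM in soma. Microglia markers gave 2 of 7 (C1qa and C1qb; 22.3 and 29.7 against 13.6 and 11.9 CPM) and oligodendrocyte lineage markers 2 of 8 (Olig1 and Mbp; 156.0 and 156.1 against 86.6 and 97.4 CPM). The neuron list gave 1 of 10, Map2, whose mRNA is known to enter dendrites, and summed to 5260 and 5866 against 4082 and 4255 CPM. The astrocyte genes themselves summed to 3140 and 2049 against 1158 and 1179 CPM. Gfap alone made up 55.3% and 60.1% of these neurite sums and 43.7% and 43.9% of the soma sums. The part of cell composition in the difference between fractions was not tested.

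The calls were not stable to the choice of libraries. With all 16 libraries in 1 fit 0 of the 10 members and 0% of the 23200 genes passed, and without untreated WT soma library 1, soma library 2 or neurite library 1 only Gfap and Aldh1l1 did. Without neurite library 1 the Slc1a3 difference was 1.27-fold and Aqp4 turned to a log2 difference of -0.52.

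After KCl, the same comparison in WT gave 3 of 10 members higher in neurites and 0 lower (6.87% and 2.73% of 23028 genes). Gfap had 683 and 624 CPM in soma and 1314 and 1529 CPM in neurites (2.2-fold, log2 1.14 ± 0.15 SE, adjusted p = 0.00142, edgeR). Aldh1l1 had 8.19 and 9.13 against 12.8 and 16.9 CPM (1.73-fold, adjusted p = 0.0367, edgeR) and Aldoc 188.7 and 166.6 against 254 and 316 CPM (1.62-fold, adjusted p = 0.0408, edgeR). None of the 3 overlapped between fractions. Of the 32 further astrocyte genes 5 were higher (Glul, Fabp7, Ndrg2, Dio2 and Hepacam) and 1 lower (Sparcl1). Slc1a3 had 244 and 230.2 against 321 and 400.1 CPM, without overlap, and did not pass (1.53-fold, adjusted p = 0.19, edgeR). Sox9 had 190.0 and 274 CPM in soma and 170.0 and 229.6 CPM in neurites, so its fractions overlapped. With the replicate number as a block, Gfap alone passed (adjusted p = 0.0564 for Aldh1l1 and 0.0516 for Aldoc, edgeR). With all 16 libraries 0 members and 0% of genes passed, and with a KCl-treated WT library left out 1 or 2 did.

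Whether KCl changed neurite enrichment was tested as the difference between the neurite to soma ratios of whole inserts, a replicate number being taken as 1 insert. By the study's rule of an unadjusted p of at most 0.05 and a 1.5-fold change, 1 of 10 members was called lower and 0 higher, against 1.35% and 2% of 23200 genes. That gene was Sox9. Its neurites held 2.61 and 1.49 times the soma level in the untreated inserts and 0.895 and 0.838 times after KCl (log2 change -1.08 ± 0.26 SE, unadjusted p = 0.00253, adjusted p = 0.999, edgeR). The estimates of all 10 members were below 0, with a median of -0.32 against 0.05 for all genes. The medians of the other non-neuronal lists were below 0 too, from -0.215 (further astrocyte genes) to -1.16 (fibroblast and vessel genes). That of the neuron list was 0.02. Among the members, the next lowest after Sox9 were Fgfr3 at -0.71 and Gja1 at -0.49 (unadjusted p = 0.118 and 0.257, edgeR). These estimates lean on untreated insert 1, where the neurites held more of all 10 members than the soma. With 1 library left out, the estimates reached down to -1.597 (Sox9), -1.415 (Fgfr3) and -1.255 (Gja1). Without the neurite library of untreated WT replicate 1, the estimates of Aqp4, Slc1a3, Aldh1l1 and Gja1 turned positive. With adjusted p-values edgeR called 0 members and 0 of 23200 genes, whereas DESeq2 gave Sox9 an adjusted p of 0.0497.

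The response to 2 h of depolarization was asked in the soma of WT cultures. Sox9, which specifies glia and is kept on in astrocytes, was the 1 member called higher, and 0 were lower, where 3.74% of 24060 genes were called higher and 2.96% lower (adjusted p of at most 0.05 and at least 2-fold). It had 53.7 and 54.9 CPM in untreated soma and 190.0 and 274 CPM after KCl. The change was 4.06-fold (log2 2.02 ± 0.25 SE, adjusted p = 0.000502, edgeR). The libraries did not overlap, and the call held in every alternative run, with log2 changes between 1.72 and 2.29 when a library was left out. The other 9 members changed between 0.87-fold (Sox2) and 1.4-fold (Slc1a3) by their estimates, with adjusted p from 0.282 to 0.879 (edgeR). Slc1a3 had 161.9 and 160.3 CPM before and 244 and 230.2 CPM after KCl, and Gfap 506 and 518 CPM before and 683 and 624 CPM after it. Both were above the untreated libraries without overlap, as were Aqp4, Slc1a2, Gja1, Aldoc and Aldh1l1, whereas Sox2 and Fgfr3 overlapped. None of these genes met the 2-fold rule or the limit on adjusted p.

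In WT neurites 0 of 10 members were called by edgeR (5.03% of 22059 genes in either direction), 2 had an unadjusted p under 0.05 (22.8% of genes), and DESeq2 called 1 (5.34% of genes). Sox9 had 139.9 and 81.9 CPM untreated and 170.0 and 229.6 CPM after KCl (1.84-fold, adjusted p = 0.0578, edgeR). Its groups did not overlap. Fgfr3 had 12.8 and 6.37 CPM untreated and 4.02 and 5.50 CPM after KCl (log2 -0.98 ± 0.37 SE, adjusted p = 0.139, edgeR), and this was the call of DESeq2 (adjusted p = 0.0243). Without the untreated neurite library 1, Sox9 passed at 2.5-fold (adjusted p = 0.0191, edgeR). Whether the response of Sox9 differs between soma and neurites is the test of neurite enrichment given above.

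**Figure D4:**
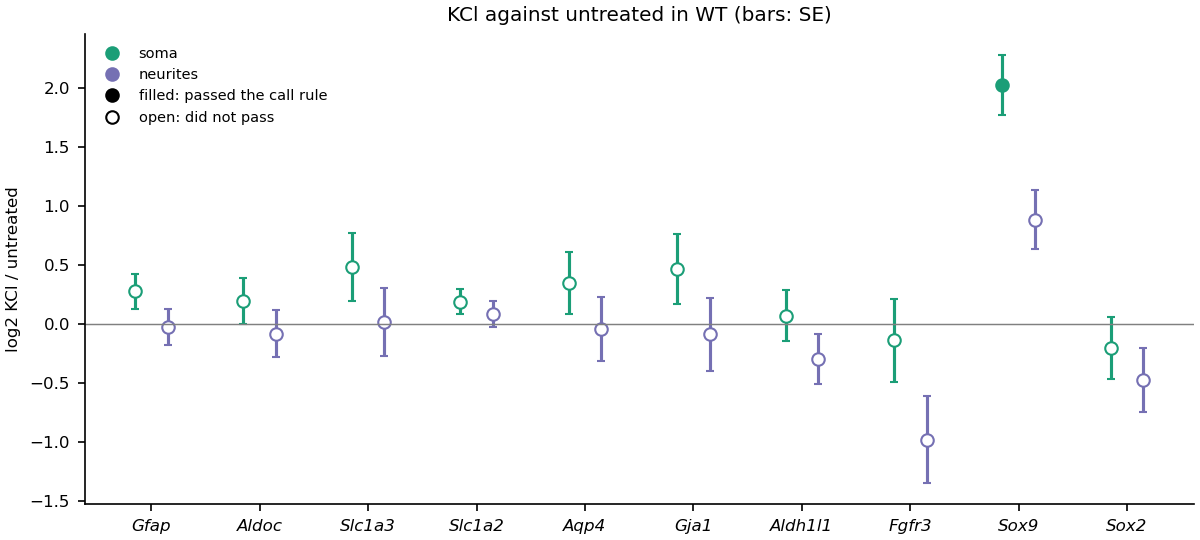
Change after KCl in WT (log2, vertical axis; bars are SE of the edgeR fit on 8 libraries) for each astrocyte marker gene in soma (green) and neurites (purple), with filled points for genes that passed the call rule. Sox9 in soma is the only filled point, at 2.02, and the soma estimates of the other genes lie between -0.20 and 0.48.

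Among the 32 further astrocyte genes, Dio2 alone was called in soma, where 3.74% of all genes were called higher and 2.96% lower. A count of 1 in 32 is thus near the share of all genes. It rose from 3.12 and 3.88 CPM to 11.2 and 14.6 CPM (3.5-fold, adjusted p = 0.000524, edgeR), and in neurites from 15.0 and 9.83 CPM to 24.5 and 27.8 CPM (2.15-fold, adjusted p = 0.0121, edgeR). The next by p in soma were Sparcl1 (1.36-fold, adjusted p = 0.0466) and Slc39a12 (1.53-fold, adjusted p = 0.172, edgeR), both below the 2-fold rule. In the progenitor and Notch list, the Notch targets Hes1 and Hes5 fell and Id1 rose in soma. Hes5, which holds progenitors back from becoming neurons, went from 11.0 and 10.3 CPM to 0.78 and 0.51 CPM (17.6-fold lower, adjusted p = 0.00028, edgeR). In neurites it went from 28.6 and 10.3 CPM to 1.21 and 0.68 CPM (20.3-fold lower, adjusted p = 0.000345, edgeR). Hes5, Hes1 and Id1 are named after their values were seen. Neither the reactive astrocyte list nor the oligodendrocyte, microglia and neuron lists had a called gene in soma, and the fibroblast and vessel list had 1 (Fn1).

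In Mettl3 KO cultures the members were compared between fractions in the same way. No member was called in untreated or KCl-treated Mettl3 KO by edgeR, nor was any other gene (0%). Unadjusted p-values under 0.05 were reached by 0 members in both comparisons (5.49% and 0.57% of genes), and DESeq2 called 0 members (0.0754% and 0% of genes). Untreated, Gfap had 1123 and 1023 CPM in soma and 4119 and 1772 CPM in neurites (2.66-fold, log2 1.41 ± 1.11 SE, adjusted p = 0.87, edgeR). Its neurite libraries were both above soma, as in WT, but the SE was far wider than the 0.15 of WT. In KCl-treated Mettl3 KO its log2 difference was 0.89 with all libraries and 0.50 without the 2 libraries that stood apart. All 10 members had estimates above 0 with all libraries, but only 3 (Gfap, Aldoc and Aldh1l1) without those 2. Among those that turned below 0 were Aqp4 (0.55 to -0.96), Gja1 (0.64 to -1.34) and Sox2 (0.10 to -1.24). The ratio of neurites to soma within an insert was above 1 in 8 of 8 inserts of both genotypes for Gfap (1.40 to 3.67) and Aldoc (1.12 to 2.63), and in 7 of 8 for Slc1a3 and Aldh1l1. For Slc1a2, Aqp4 and Gja1 it was above 1 in 3 of 8. Slc1a2 had the narrowest range, 0.864 to 1.22, and Gja1 ran from 0.39 to 1.80.

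The test of whether Mettl3 KO changed neurite enrichment in untreated cultures called 0 of 10 members (4.19% of 22942 genes in either direction by unadjusted p and 1.5-fold, edgeR). None had an unadjusted p under 0.05 (4.2% of genes), and DESeq2 called 0 (6.9% of genes). The estimates ran from a log2 change of -0.74 for Sox2 to 0.10 for Aqp4, with SE from 0.28 to 0.84. Those SE were wider than most of the estimates, so changes of this size were not detectable at this spread.

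The response to KCl in Mettl3 KO was measured with replicates that lay far apart. Gfap in neurites had 4119 and 1772 CPM untreated and 13690 and 1581 CPM after KCl, and Aqp4 90.4 and 49.0 CPM untreated and 778 and 31.2 CPM after KCl. Gja1 had 74.6 and 19.9 CPM untreated and 676 and 15.8 CPM after KCl. In all 3 genes KCl replicate 1 was the highest of the 4 libraries and KCl replicate 2 the lowest. Without the 2 libraries that stood apart, their log2 changes in neurites went from 1.27 to -0.87 (Gfap), from 2.43 to -1.14 (Aqp4) and from 2.77 to -1.56 (Gja1), and in soma from 1.80 to 0.04, from 2.14 to 0.09 and from 2.22 to -0.12. By edgeR 0 of 10 members passed in soma and 0 in neurites (0% of genes in both), with 1 member at an unadjusted p under 0.05 in each (6.6% and 6.26% of genes).

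That member was Sox9. In Mettl3 KO soma it had 121.5 and 116.1 CPM untreated and 360.2 and 474 CPM after KCl (3.39-fold, log2 1.76 ± 0.46 SE, adjusted p = 0.566, edgeR). Replicate 1, which was the higher for the other members, was the lower for Sox9, and the treated libraries lay above the untreated ones without overlap. In neurites it had 256 and 136.0 CPM against 533 and 378 CPM (2.18-fold, adjusted p = 0.737, edgeR). DESeq2 and the fit on all 16 libraries called Sox9 in soma (3.41-fold and 3.5-fold, adjusted p = 0.0444 and 0.043), where they called 1.14% and 1.17% of genes. DESeq2 called 0 members in neurites (1.14% of genes). Without the 2 libraries that stood apart the Sox9 change was 3.90-fold in soma (adjusted p = 0.567, edgeR) and 1.96-fold in neurites. Whether the Sox9 response differs between genotypes was not tested.

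Between genotypes, the estimates of the members were above 0 in each of the 4 pairs of groups except for Slc1a2 in KCl-treated soma, and none passed. In untreated soma 0 of 10 were called by edgeR (0.185% of 23750 genes in either direction), 2 had an unadjusted p under 0.05 (8.97% of genes), and DESeq2 called 0 (1.74% of genes). All 10 estimates were above 0, with a median log2 difference of 1.03 against 0.02 for all genes. Gfap had 1123 and 1023 CPM in Mettl3 KO against 506 and 518 CPM in WT (2.1-fold, adjusted p = 0.77, edgeR). Aldh1l1 had 29.2 and 13.0 CPM against 7.71 and 7.97 CPM (2.69-fold, adjusted p = 0.716, edgeR). Both genes were above WT without overlap, but the spread that all 16 libraries share was wide.

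Sox2, a factor of neural stem cells that astrocytes retain, had the largest estimate in untreated soma. It was at 9.43 and 9.82 CPM in Mettl3 KO against 2.62 and 1.91 CPM in WT (4.24-fold, log2 2.08 ± 0.72 SE, adjusted p = 0.399, edgeR). Its replicates were close in Mettl3 KO, and those of WT were 1.37-fold apart. Without the 2 libraries that stood apart Sox2 passed here, at 4.13-fold (adjusted p = 0.0239, edgeR), with 419 of 23750 genes called. In untreated neurites it had 5.48 and 11.1 CPM against 3.58 and 2.55 CPM (2.7-fold, adjusted p = 0.728, edgeR). The groups were separate there too, although Mettl3 KO replicate 1 was nearer to WT. In that comparison 0 of 10 members were called (0.188% of 21814 genes), 1 had an unadjusted p under 0.05 (Sox9; 7.47% of genes), and DESeq2 called 0 (1.43% of genes).

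After KCl most Mettl3 KO estimates were larger than in untreated cultures, but not those of Slc1a2 and Aldoc in both fractions and of Sox9 in soma. In soma 0 of 10 members were called (0.212% of 24038 genes in either direction), 5 had an unadjusted p under 0.05 (14.5% of genes), and DESeq2 called 3 (Gfap, Aldh1l1 and Sox2; 4.27% of genes). In neurites 0 were called (0.44% of 22488 genes), 7 had an unadjusted p under 0.05 (24.1% of genes), and DESeq2 called 6 (11.5% of genes). Sox2 had 25.1 and 11.7 CPM in Mettl3 KO soma against 1.92 and 2.24 CPM in WT (8.82-fold, adjusted p = 0.144, edgeR), and 37.1 and 4.91 CPM against 2.30 and 2.04 CPM in neurites (9.58-fold, adjusted p = 0.0823, edgeR). In both fractions each Mettl3 KO library was above WT. Without the 2 libraries that stood apart Sox2 passed in soma at 5.63-fold (adjusted p = 0.0393, edgeR), whereas Gfap and Aldh1l1 were at 1.74-fold and 1.91-fold there (adjusted p = 0.553 and 0.64, edgeR). Sox9 in neurites was at 1.88-fold without them (adjusted p = 0.374, edgeR). In neurites, the same step turned the log2 differences of Slc1a3 (-0.22), Gja1 (-0.65), Aldoc (-0.18), Fgfr3 (-0.16), Slc1a2 (-0.15) and Aqp4 (-0.04) below 0.

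No gene of the other marker lists was called between genotypes in untreated soma. The 3 of 32 further astrocyte genes with the smallest p in untreated soma were Kcnj10 (Kir4.1, a potassium channel), Acsbg1 and Mfge8, and none passed. Kcnj10 had 37.0 and 8.65 CPM in Mettl3 KO against 2.27 and 1.94 CPM in WT (10.8-fold, adjusted p = 0.388, edgeR). Acsbg1 had 93.1 and 53.5 CPM against 21.1 and 23.1 CPM (3.31-fold, adjusted p = 0.497, edgeR), and Mfge8 134.8 and 99.8 CPM against 43.1 and 45.7 CPM (2.64-fold, adjusted p = 0.584, edgeR). The 6 other Mettl3 KO libraries summed to 318 to 456 CPM over the reactive astrocyte list against 175 to 320 CPM in WT, and to 134 to 254 CPM against 86.6 to 156 CPM over the oligodendrocyte lineage list, and their microglia list to 17.2 to 57.6 CPM against 11.9 to 37.7 CPM. These ranges overlapped between genotypes, but they pool fractions and treatments. The neuron list of those 6 libraries summed to 3571 to 4780 CPM against 4082 to 5898 CPM in WT. In untreated soma alone, the reactive list had 318 and 416 CPM in Mettl3 KO against 175 and 196 CPM in WT. The oligodendrocyte list had 154 and 140 CPM there against 86.6 and 97.4 CPM. Both lists were also separate in untreated neurites, where the microglia list overlapped. Genotype, litter and the makeup of a culture cannot be told apart for these genes, since each genotype came from its own litters.

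**Figure D5:**
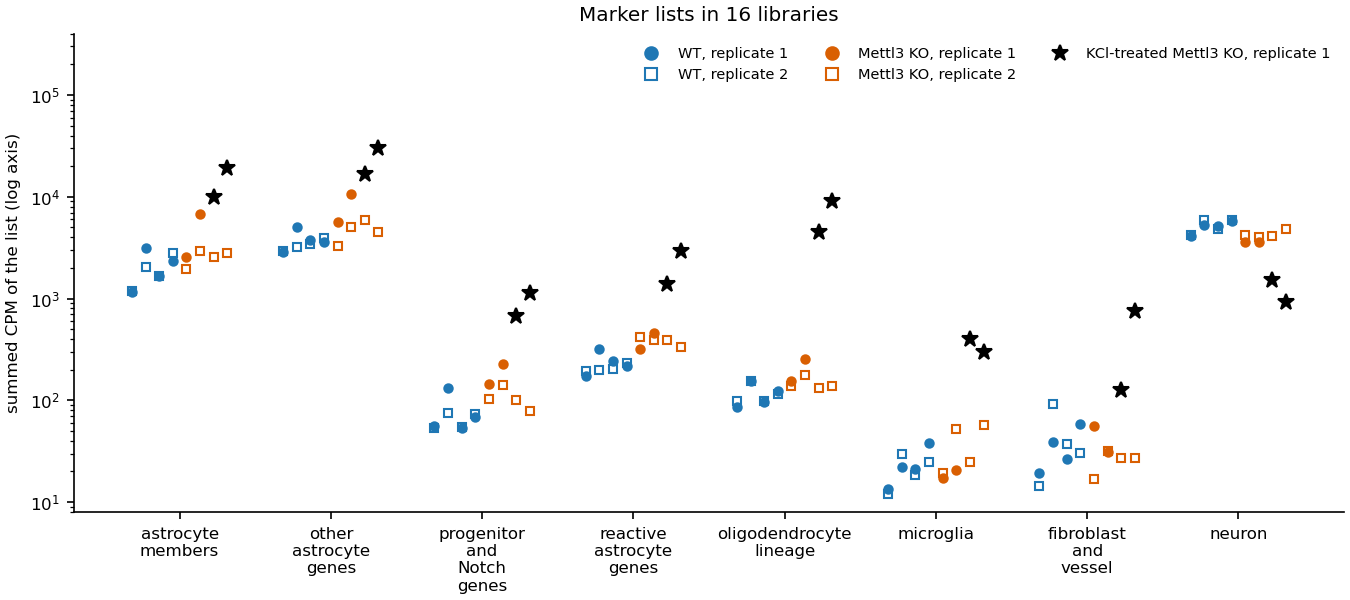
Summed level (CPM, log axis) of each marker list (horizontal axis) in the 16 libraries, with WT in blue, Mettl3 KO in orange, filled circles for replicate 1, open squares for replicate 2 and black stars for the 2 libraries of KCl-treated Mettl3 KO replicate 1. The stars are above all other libraries for the 7 non-neuronal lists and below them for the neuron list (1507 and 916 CPM).

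In the 2 libraries that stood apart, the members did not rise alike. Against replicate 2 of the same group in neurites, Gja1 was 42.8-fold, Aqp4 24.9-fold, Aldh1l1 10.4-fold and Gfap 8.66-fold higher. Sox2 and Slc1a3 were 7.57-fold and 7.53-fold, Fgfr3 6.06-fold and Aldoc 2.75-fold higher. Sox9 and Slc1a2 had the smallest ratios, 1.41-fold and 1.44-fold. These are ratios of 2 single libraries and have no replicate check. The intermediate filament gene Vim was at 445 and 798 CPM in these libraries against 17.9 to 130.2 CPM in the other 14, and the microglial C1qa at 102.6 and 76.9 CPM against 0.863 to 12.2 CPM. Their part in the levels of the members was not tested.

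Across the 16 libraries the members varied together. The 45 pairs of members had a median Pearson r of 0.76 on log2 CPM (0.30 to 0.98), of 0.54 without the 2 libraries that stood apart and of 0.43 in the 8 WT libraries, where 40 of the 45 were above 0. These values are descriptions, since fractions of an insert share their culture. Slc1a3 (r = 0.98) and Aldh1l1 (0.98) followed the mean of the members most closely, and Slc1a2 (0.61) and Sox9 (0.67) least. In WT alone the tightest pair was Gfap with Aldoc (0.98). Of 15160 other genes whose counts averaged at least 100, those most like the mean of the members over 16 libraries included Emp2 (r = 0.99), Pbxip1 (0.99), Cyp4v3, Slc14a1, Jam2, Slc12a4, Pdpn, Tcn2 and Hepacam (0.98 each). Over the 14 libraries their r was 0.94 to 0.98, and over the 8 WT libraries 0.75 to 0.95. Slc14a1 and Hepacam are among the 32 further astrocyte genes.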

How the data were processed

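RNA-seq libraries were made by the authors from 50 ng of total RNA with a low-input kit that keeps no strand information, and were aligned to GRCm38 with STAR 2.7.7a. The deposited gene counts came from featureCounts 2.0.1 with multi-mapping reads included. The authors deposited DART-seq results as an editing score per RNA and as a C-to-U fraction per site, both averaged over libraries. Tables of the authors' own comparisons (fold changes and p-values) served only for gene symbols. The symbols paired 23566 identifiers with names.

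Counts were tested with the quasi-likelihood test of edgeR 4.0.16 in R 4.3.3 after TMM scaling, on genes whose counts averaged at least 10, with Benjamini-Hochberg adjustment over all genes tested. Comparisons within a genotype used its 8 libraries, and Mettl3 KO against WT used all 16. Calls needed an adjusted p of at most 0.05 and 1.5-fold (2-fold for KCl). Changes of neurite enrichment used an unadjusted p and a term for each insert. CPM and CPM per kb of exon were computed from the counts. Alternatives were DESeq2 1.42.0, limma 3.58.1 (voom), RLE scaling, other filters, other library sets, a replicate block and leaving out each library. Not planned in advance were the omission of the 2 libraries that stood apart, scaling to neuron markers and crossing the untreated WT neurite numbers. Scripts were tested on simulated counts. Python 3.11.15, pandas 2.3.3 and matplotlib 3.10.9 handled tables and plots.

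The members and lists were chosen with earlier results of these data known. Named genes were the 10 members, Mettl3, the 3 further astrocyte genes with the smallest p in each of 3 comparisons (WT fractions, KCl in WT soma, genotypes in untreated soma), and the 10 other genes most correlated with the members' mean. Genes named after their values were seen are marked as such. Some genes that these rules name are not reported here.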

Additional observations from a re-analysis of the deposited data

How the results depend on the processing

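The 10 calls of single members in the main comparisons never changed direction. Of the recomputed counts of members called, 146 stayed within 1.5 times the main count and 29 did not. Neurites against soma in untreated WT gave 5 members (3145 genes), 0 (0 genes) with all 16 libraries and 2 to 6 when a library was left out. After KCl it gave 3 members (2211 genes), 0 (0 genes) with 16 libraries and 1 to 2 when a library was left out. KCl in WT neurites gave 0, 1 with DESeq2 and 0 to 1 when a library was left out. KCl in Mettl3 KO gave 0 in soma (0 genes; 270 with DESeq2), but 1 with DESeq2, 4 with no filter on low counts and 1 with 16 libraries, and 0 in neurites but 1 with no filter. Mettl3 KO against WT gave 0 in untreated soma and 1 without the 2 libraries that stood apart. In KCl-treated soma it gave 0, 3 with DESeq2, and 1 each with no filter, with voom and without those 2 libraries. In KCl-treated neurites it gave 0 (99 genes; 2596 with DESeq2), 6 with DESeq2, 1 with no filter, 10 when scaled to neuron markers, and 0 to 8 when a library was left out (8 without Mettl3 KO replicate 2). The KCl change of WT neurite enrichment gave 1, 2 with no filter and 0 with adjusted p, and the Mettl3 KO change gave 0 in the main fit. Neither of these counts was stable when a library was left out. No share of all genes called is given for no filter, voom, scaling to neuron markers or a library left out. The counts of members in those settings, the 10 with neuron markers included, therefore cannot be read against a background. The causes of the changed counts were not tested. Among members called in any setting of a comparison, some log2 values changed sign without the 2 libraries that stood apart. For KCl in Mettl3 KO this was Gja1 (-0.12 in soma, -1.56 in neurites). For Mettl3 KO against WT in KCl-treated neurites they were Aqp4 (-0.04), Slc1a2 (-0.15), Slc1a3 (-0.22), Aldoc (-0.18), Gja1 (-0.65) and Fgfr3 (-0.16). Members called in no setting also changed sign, such as Gfap (1.27 to -0.87) and Aqp4 (2.43 to -1.14) for KCl in Mettl3 KO neurites. With 1 library left out, the ranges were -0.52 to 0.60 for Aqp4 between untreated WT fractions, -0.077 to 3.07 and -1.64 to 3.87 for Gja1 under KCl in Mettl3 KO soma and neurites, and, for genotype in KCl-treated neurites, -0.003 to 4.58 (Aqp4), -0.12 to 0.36 (Slc1a2), -0.18 to 2.68 (Slc1a3), -0.14 to 1.26 (Aldoc), -0.61 to 4.76 (Gja1) and -0.13 to 2.42 (Fgfr3). For the KCl change they were -1.04 to 0.36 (Aqp4), -1.07 to 0.25 (Slc1a3), -0.80 to 0.006 (Aldh1l1) and -1.25 to 0.18 (Gja1), and for the Mettl3 KO change -0.87 to 0.42 (Aldoc). A lone sample left in a group was assumed to vary like the others.

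With the replicate number as a block, 5 members were called between untreated WT fractions, 1 after KCl, and no other count of members changed. The differences between replicates 1 and 2 were correlated across the 2 fractions at 0.901 in KCl-treated Mettl3 KO, but at -0.141, 0.0153 and 0.0716 in the other 3 pairs, and the labels do not say what a number marks, so the comparisons of groups had no block. The numbers stood for inserts only in the ratios of neurites to soma and in the tests of their change, after the study's methods. With the untreated WT neurite numbers crossed, 5 members and 3266 genes were called. Both tests of a changed neurite enrichment hold an insert term; without that replicate block 1 and 0 members were called. Groups of 2 libraries limit every p-value, and the depth of the DART-seq values is unknown.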
